A study of Drosophila melanogaster with 30 samples.

Results

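CecA1, CecA2, CecB and CecC are the 4 cecropin genes listed in the single-cell tables of a study of Drosophila melanogaster larval blood cells (hemocytes), out of 16322 genes listed over all files. They were chosen by name, and the values used for that choice were their levels over the 8 conditions, their joint detection in cells and their levels by Tep4 and Hml status. These 3 sets of values are therefore given as a description with no test.

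Cecropins are short, positively charged peptides that are secreted into the hemolymph and insert into bacterial membranes. In the fly they are known as rapid targets of the Imd pathway, in which peptidoglycan recognition proteins sense bacterial cell wall and the NF-kappaB factor Relish is cleaved and enters the nucleus. The fat body is their best known source after systemic infection, and hemocytes and barrier epithelia also transcribe them. In the BDGP6.54 annotation the 4 genes lie on chromosome arm 3R within 6.06 kb. CecA1 (FBgn0000276, 30210874 to 30211273), CecA2 (FBgn0000277, 30212156 to 30212568) and CecC (FBgn0000279, 30216484 to 30216938) are on the plus strand, and CecB (FBgn0000278, 30213315 to 30213797) is on the minus strand. Each has 2 exons and a coding sequence of 189 bases. The interval also holds the pseudogenes Cec-Psi1 and Cec2, and Anp, the gene of the male accessory gland peptide andropin, lies just before CecA1. Anp stayed at or under 0.194 CPM (UMI counts scaled to the same total in each library) in all 30 libraries, Cec2 at or under 3.94 CPM and Cec-Psi1 at or under 4.80 CPM. CecA1 and CecA2 are near-identical copies, so the division of reads between them is uncertain.

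The libraries were made by Drop-seq, which captures single cells in droplets and counts the 3′ ends of transcripts by unique molecular identifiers (UMIs), from Oregon-R larvae. Lymph glands, the larval hematopoietic organ, came from normal larvae at 72 h after egg laying (AEL; 5 libraries), 96 h AEL (5) and 120 h AEL (4), and from larvae infested by the parasitoid wasp Leptopilina boulardi at 72 h AEL and taken at 96 h AEL (4). Circulating hemocytes came from larvae infested at 72 h AEL and taken at 96 h AEL (3) or 120 h AEL (3), and from normal larvae at 96 h AEL (3) and 120 h AEL (3). The labels call the libraries biological replicates, each lymph gland library pools many dissected glands, and all larvae carry the same strain background. After filtering, 48199 of 50849 cell barcodes were kept, with 131 to 4537 cells and 1022596 to 33304418 UMIs per library, and 831671 UMIs belonged to cecropins.

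Some libraries stood apart from their labels or from each other. The 3 libraries labelled infested circulation at 96 h carried 674 to 957 CPM of Tep4, a prohemocyte marker, as did infested lymph glands (716 to 1033 CPM), against 167 to 198 CPM in normal circulation at 96 h. Hml, a plasmatocyte marker, stood at 547 to 1183 CPM in them, against 4064 to 6792 CPM in normal circulation at 96 h. They also held 7.5 to 14.4 CPM of Antp and 7.8 to 27.9 CPM of kn, genes of the posterior signaling center of the lymph gland. They are therefore called the libraries labelled infested circulation at 96 h. Normal circulation 96 h library 3 and normal circulation 120 h library 1 shared 41 cell barcodes, 9.03% of the smaller library. Fat body markers summed to 91.8 to 1472 CPM in normal circulation and to 0.46 to 8.8 CPM in the lymph gland libraries, and their part in the cecropin values of circulation was not tested.

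Summed over the 4 genes, cecropins were highest in the lymph gland at 96 h and lowest in normal circulation. The summed level was 6749.5, 4609.9, 1572, 4976 and 1096 CPM in the 5 normal lymph gland libraries of 72 h, then 4532, 5724, 3583, 6123 and 5408 CPM at 96 h, and 2603, 1538, 2276 and 3019.9 CPM at 120 h. The 72 h libraries fell apart into 3 high and 2 low ones and overlapped with those of both later times, whereas every 120 h library was below every 96 h library. Infested lymph glands at 96 h had 3483, 2609, 546 and 295 CPM, and the highest of them was just under the lowest normal library of that age. The low libraries 3 and 4 were also the lowest infested ones for the summed other antimicrobial peptides, at 133 and 99.999 CPM against 524 and 487 CPM in libraries 1 and 2.

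The libraries labelled infested circulation at 96 h had 1536, 4244 and 424 CPM, against 32.5, 30.3 and 164 CPM in normal circulation at 96 h. Infested circulation at 120 h had 375.5, 382 and 232 CPM, against 1.67, 74.0 and 30.2 CPM in normal circulation at 120 h. No infested circulation library overlapped with a normal one of its age. The lowest value, 1.67 CPM, rested on 7 UMIs in normal circulation 120 h library 1, 1 of the pair that shares barcodes. In such library sums, fewer cells with cecropin RNA and less RNA per cell cannot be told apart, and the values per cell follow below.

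**Figure D1:**
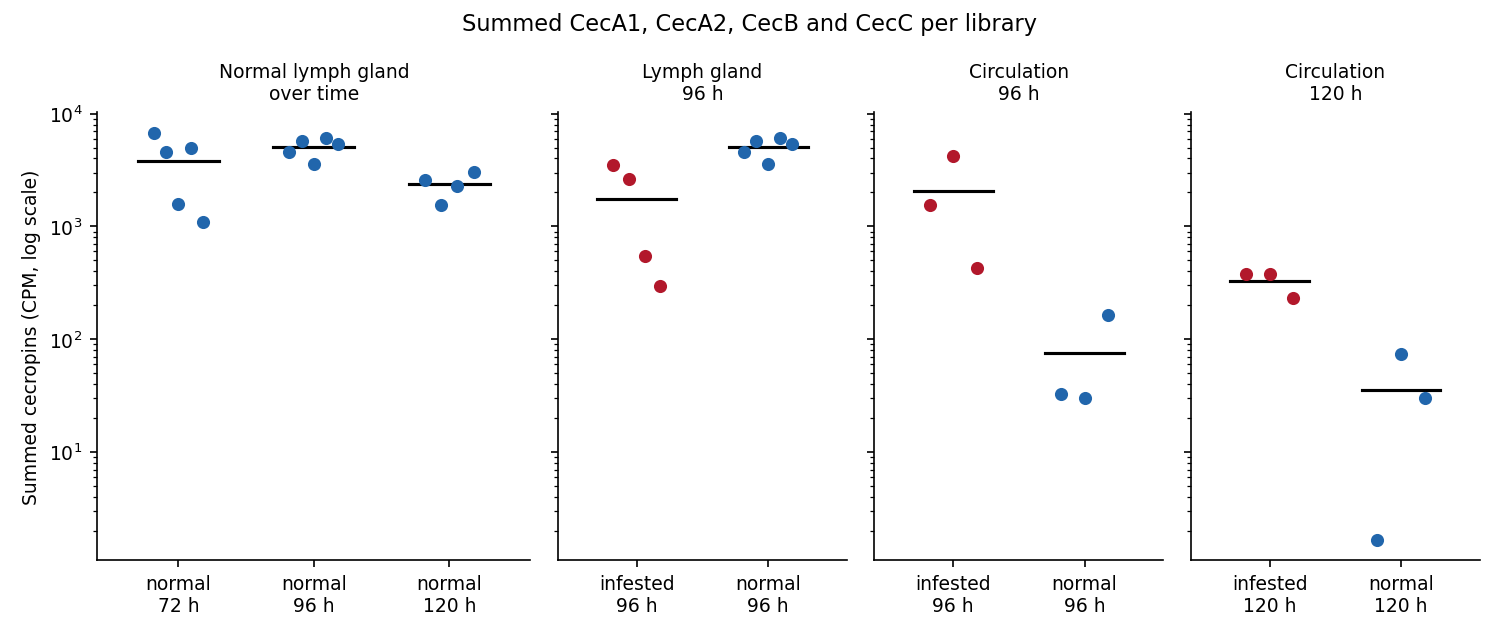
Summed CecA1, CecA2, CecB and CecC per library in CPM on a log axis, 1 point per library, infested libraries in red and normal ones in blue, with a black line at the group mean. The 5 normal lymph gland libraries of 96 h lie between 3583 and 6123 CPM, and all 6 normal circulation libraries lie at or under 164 CPM.

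Ordered by the mean, the summed level was 5074 ± 1019 CPM (SD, n = 5) in the normal lymph gland at 96 h and 3801 ± 2398 CPM (SD, n = 5) at 72 h, followed by 2359 ± 626 CPM (SD, n = 4) at 120 h. Next came the libraries labelled infested circulation at 96 h with 2068 ± 1965 CPM (SD, n = 3), infested lymph gland with 1733 ± 1561 CPM (SD, n = 4) and infested circulation at 120 h with 329.8 ± 84.9 CPM (SD, n = 3). Normal circulation closed the order with 75.6 ± 76.6 CPM at 96 h and 35.3 ± 36.4 CPM at 120 h (SD, n = 3 each). Of the neighbours in this order, only infested circulation at 120 h and normal circulation at 96 h did not overlap. Scaling by TMM factors, which correct for a few genes taking a large share of the UMIs, kept the order, with means between 5392 CPM in the lymph gland at 96 h and 29.4 CPM in normal circulation at 120 h.

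On average CecA2 was the most abundant member in the normal lymph gland, although in 120 h library 1 CecC stood above it. Since Drop-seq counts 3′ ends, UMI levels of different genes can be set side by side without correction for length. CecA2 had 3381, 2550.4, 923, 2472 and 639 CPM at 72 h, 1778, 2098, 1331, 2197 and 1862 CPM at 96 h, and 776, 485, 724 and 1089 CPM at 120 h. Its 72 h mean of 1993 ± 1167 CPM (SD, n = 5) was near its 96 h mean of 1853 ± 338 CPM (SD, n = 5), and all 120 h libraries were below all 96 h libraries. CecA1, its closest copy, followed at a lower level, with means of 796 ± 520 CPM at 72 h, 1022 ± 215 CPM at 96 h (SD, n = 5 each) and 417 ± 108 CPM at 120 h (SD, n = 4). Its 72 h libraries ranged over 245 to 1395 CPM.

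CecB, the member on the opposite strand, was the scarcest in the normal lymph gland at 72 and 96 h and had a different course over time. At 120 h its mean of 453 CPM was above the 417 CPM of CecA1. It had 354, 131, 68.2, 233 and 38.3 CPM at 72 h, 457, 726, 391, 726 and 672 CPM at 96 h, and 566, 295, 441 and 509 CPM at 120 h. Every 96 h library was above every 72 h library, the mean being 3.61 times as high, while the 120 h libraries overlapped with those of 96 h. Of all 7780 genes tested between 96 and 72 h, 13.1% were higher and 4.23% lower without overlap. CecC, which lies apart from the other members at the far end of the interval, had 1619.7, 859, 330, 1252 and 174 CPM at 72 h, 1459.8, 1831, 1102, 1959 and 1673 CPM at 96 h, and 839, 468, 710 and 869 CPM at 120 h. Its 120 h mean of 722 ± 183 CPM (SD, n = 4) was lower than the 96 h mean of 1605 ± 337 CPM (SD, n = 5) by a factor of 2.22, with no overlap.

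These differences set how much each member gave to the family. CecA2 made up 54.4 ± 4.3% of the cecropin UMIs of a library at 72 h, 36.7 ± 1.8% at 96 h (SD, n = 5 each) and 32.3 ± 2.6% at 120 h (SD, n = 4). CecB gave 4.12 ± 0.96% at 72 h, 11.6 ± 1.1% at 96 h and 19.3 ± 2.0% at 120 h, whereas CecA1 stayed between 17.8% and 20.5% on average. The 72 h libraries ranged from 1096 to 6749.5 CPM in their summed level but differed little in this make-up. Infested lymph glands gave 43.0 ± 9.9% to CecA2 and 8.65 ± 1.9% to CecB (SD, n = 4). In circulation CecC was the largest member, with 40.9 ± 2.3% in the libraries labelled infested circulation at 96 h and 55.6 ± 10.7% in normal circulation at 96 h. At 120 h it took 49.5 ± 3.5% in infested circulation and 63.5 ± 24.6% in normal circulation (SD, n = 3 each), where the 3 normal libraries held 397 cecropin UMIs in all.

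**Figure D2:**
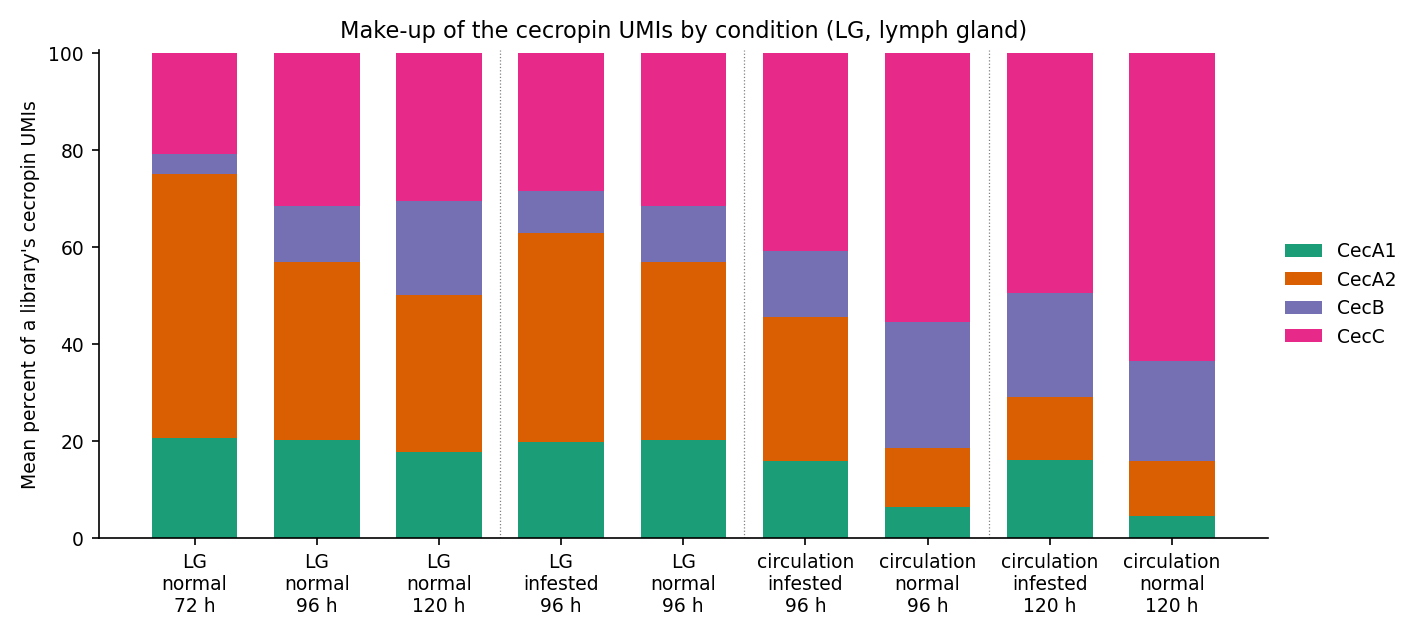
Mean percent of a library's cecropin UMIs given by CecA1, CecA2, CecB and CecC in each condition (LG, lymph gland), with each bar summing to 100. CecA2 takes 54.4% at 72 h and 32.3% at 120 h in the normal lymph gland, and CecC takes the largest part in the 4 circulation conditions.

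Set against normal lymph glands of 96 h, infested ones had lower means of all 4 members. CecB averaged 166 ± 156 CPM in infested (SD, n = 4) and 594 ± 159 CPM in normal glands (SD, n = 5), CecA2 637 ± 514 CPM in infested and 1853 ± 338 CPM in normal glands. These 2 members did not overlap between the groups. CecA1 averaged 366 ± 351 CPM in infested and 1022 ± 215 CPM in normal glands, and CecC 564 ± 543 CPM in infested and 1605 ± 337 CPM in normal glands, and both overlapped because infested library 1, at 777 CPM of CecA1 and 1151 CPM of CecC, reached above the lowest normal libraries. Of all 7309 genes tested in this comparison, 5.05% were lower and 17.3% higher without overlap. The chosen members' own contrast had been used to pick them, so nothing is read from their count.

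All 4 members were lower in normal circulation than in the normal lymph gland, without overlap, at both ages. At 96 h CecA2 averaged 10.6 ± 12.8 CPM in circulation (SD, n = 3) and 1853 ± 338 CPM in the lymph gland (SD, n = 5), and CecC 36.8 ± 30.2 CPM in circulation and 1605 ± 337 CPM in the lymph gland. The smallest gap was that of CecB, with 20.0 ± 21.2 CPM in circulation and 594 ± 159 CPM in the lymph gland. CecA1 and CecA2 had 0 UMIs in normal circulation 96 h library 2, which allows up to 2.93 CPM, and in normal circulation 120 h library 1, which allows up to 0.717 CPM, counting error only. Over all 8449 genes tested, 9.93% were lower and 35.3% higher without overlap at 96 h, and 9.41% lower and 47.9% higher at 120 h.

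All 4 members were higher in infested than in normal circulation, again without overlap. In the libraries labelled infested circulation at 96 h CecC averaged 817 ± 737 CPM, against 36.8 ± 30.2 CPM in normal circulation, and CecA2 661 ± 713 CPM, against 10.6 ± 12.8 CPM (SD, n = 3 each). At 120 h CecC averaged 165 ± 51.8 CPM in infested and 16.5 ± 13.5 CPM in normal circulation, and CecA1 51.6 ± 11.96 CPM in infested and 3.15 ± 5.20 CPM in normal circulation. Of all 7637 genes tested, 12.9% were higher and 23.2% lower without overlap at 96 h, and 26.4% higher and 35.4% lower at 120 h. At 96 h the Tep4, Hml, Antp and kn levels given above moved with this difference, and the make-up of the family did too: CecA2 took 29.7 ± 4.6% in the infested and 12.1 ± 10.9% in the normal libraries.

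In single cells, each cell was thinned at random to 2000 UMIs so that depth did not set the shares, and shallower cells were left out. In the normal lymph gland at least 1 cecropin UMI was found in 46.6 to 71.6% of cells at 72 h, 60.9 to 72.8% at 96 h and 30.7 to 51.3% at 120 h. The 120 h libraries were all below the 96 h ones. Cells with any cecropin UMI held 10.9 ± 5.3 of them on average at 72 h, 13.8 ± 1.8 at 96 h (SD, n = 5 each) and 10.9 ± 1.2 at 120 h (SD, n = 4), so positive cells of 120 h carried 9.72 to 12.65 UMIs, overlapping with 11.19 to 15.78 at 96 h. Cecropin RNA was also held by fewer cells at 120 h. The 10% of cells with the most cecropin UMIs held 43.8 to 50.5% of them at 96 h and 65.1 to 84.1% at 120 h, without thinning.

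Infested lymph glands showed another pattern. Libraries 1 and 2 had a cecropin UMI in 70.2% and 70.5% of thinned cells, inside the range of the normal libraries of 96 h, but positive cells held 9.16 and 7.09 UMIs on average, under the normal range of 11.19 to 15.78. Libraries 3 and 4 were lower in both measures, with 30.5% and 22.9% of cells positive and 3.36 and 2.58 UMIs in those. In the libraries labelled infested circulation at 96 h 54.4%, 73.7% and 30.1% of cells were positive, against 4.38%, 4.62% and 7.53% in normal circulation. At 120 h infested circulation had 23.9%, 24.9% and 19.3% positive cells, against 0.325%, 3.00% and 2.09% in normal circulation. Cells marked as crystal cells, described below, were set beside the other cells. They had a cecropin UMI in 12.6 ± 3.4% of cases in the lymph gland at 96 h (SD, n = 5), against 68.8 ± 5.6% of the other cells. In normal circulation the share was 3.73 ± 5.28% of marked and 4.67 ± 1.26% of other cells at 96 h (SD, n = 2 libraries with enough marked cells) and 0.794 ± 1.37% of marked and 1.85 ± 1.42% of other cells at 120 h (SD, n = 3). Whether these few UMIs came from the cells themselves or from free RNA was not tested. The shares of normal circulation are therefore not read as expression.

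The members were found together more often than their separate shares would give if they were independent. In the lymph gland at 96 h 18.0 to 27.7% of thinned cells held UMIs of all 4 genes, against 2.66 to 7.69% for the product of the 4 shares. At 120 h the observed share was 7.75 to 14.1% and the product 0.10 to 1.09%, and at 72 h 2.69 to 16.4% and 0.12 to 3.75%. CecA1 was found in 46.1 ± 5.8% of cells of 96 h, CecA2 in 52.0 ± 4.8%, CecC in 57.4 ± 4.9% and CecB in 34.9 ± 6.6% (SD, n = 5). CecA1 and CecA2 were together in 39.7 ± 5.3% of cells, for a product of 24.2 ± 5.1%. Cells differ in type and state, and reads of near-identical copies can be exchanged, so joint detection is not a measure of joint regulation. Infested lymph gland libraries 1 and 2 held all 4 in 14.8% and 13.8% of cells, and libraries 3 and 4 in 0.824% and 0.242%.

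**Figure D3:**
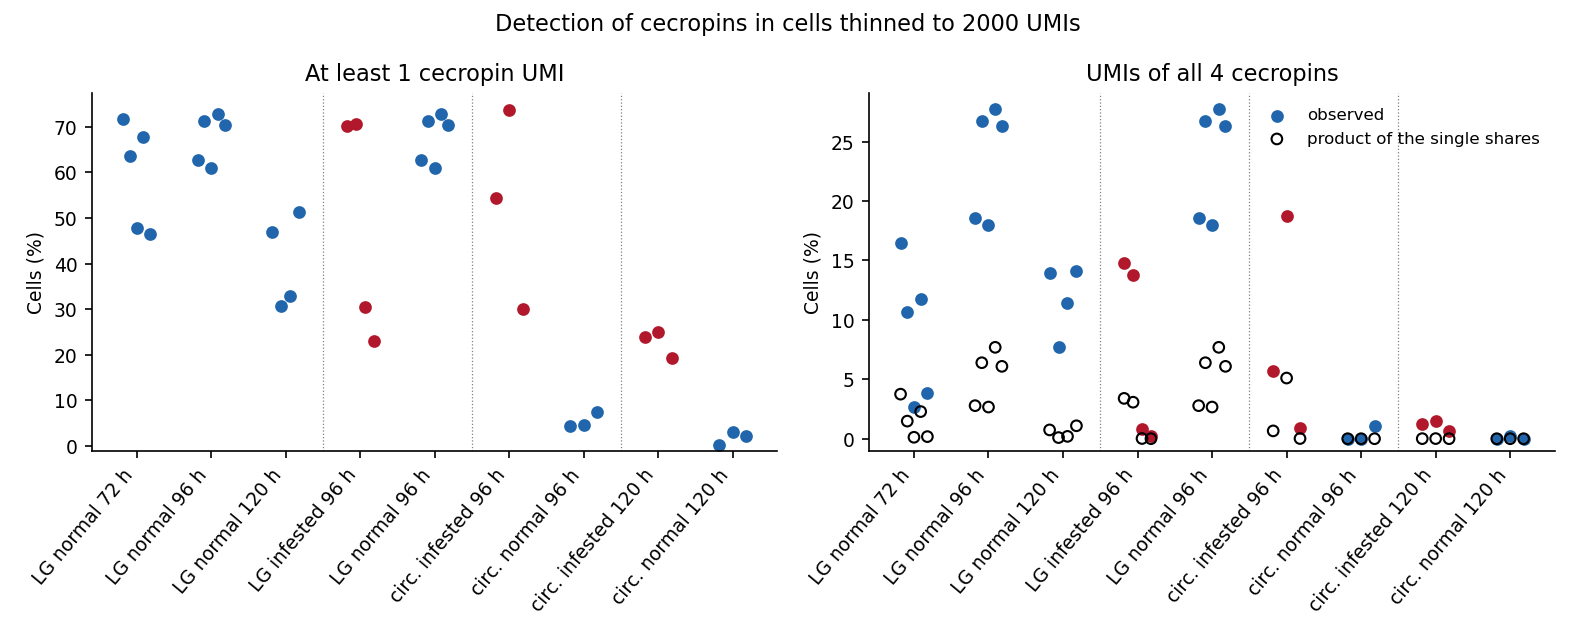
Percent of cells thinned to 2000 UMIs with at least 1 cecropin UMI (left) and with UMIs of all 4 cecropins (right) per library, infested libraries in red and normal ones in blue (LG, lymph gland; circ., circulation); open circles give the product of the 4 single shares. At 96 h the normal lymph gland has 18.0 to 27.7% of cells with all 4, above the products of 2.66 to 7.69%.

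Over thinned cells of the normal lymph gland at 96 h, Spearman's rho averaged 0.72 between CecA1 and CecA2, 0.71 between CecA1 and CecC and 0.71 between CecA2 and CecC (5 libraries). CecB was less close, with 0.56 to CecC, 0.50 to CecA1 and 0.47 to CecA2. At 120 h the CecB values were 0.66, 0.60 and 0.60 (4 libraries), nearer to those of the other pairs, which lay at 0.67 to 0.68. In infested lymph glands the means of the 6 pairs ranged from 0.27 to 0.49. Across all 30 libraries the rho of log2(CPM + 1) was highest between CecA1 and CecA2 (0.98) and lowest between CecA2 and CecB (0.80). These are descriptions over points that share depth, tissue and, for cells, the library.

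The 5 genes whose levels were most like the summed cecropins over the 30 libraries, among 3785 genes of at least 20 CPM on average, were IM18, PGRP-LF, RpL38, RpL35 and PGRP-LB. IM18, an immune-induced peptide, had a Spearman rho of 0.85 and a mean of 653 ± 145 CPM in the lymph gland at 96 h (SD, n = 5) and 7.81 ± 11.9 CPM in normal circulation at 96 h (SD, n = 3). PGRP-LF (0.85), a membrane receptor that holds back Imd signalling, and PGRP-LB (0.83), a secreted amidase that degrades peptidoglycan and is itself an Imd target, belong to the same pathway as the cecropins. The other Imd pathway genes compared ranged from 0.59 for Rel to -0.69 for ben, so the likeness was not shared across the pathway. RpL38 (0.85) and RpL35 (0.85) are ribosomal proteins. The points are the libraries of 2 tissues, so tissue, depth and base composition are shared between the genes compared. Over thinned cells of the normal lymph gland the mean rho with the summed cecropins was 0.25 for IM18, 0.19 for PGRP-LB and 0.04 for PGRP-LF.

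Tep4 marks lymph gland prohemocytes (undifferentiated progenitors), and Hml rises as cells differentiate into plasmatocytes. In the normal lymph gland at 96 h, cells with Tep4 and no Hml UMI had the most cecropins, with 6942 ± 1649 CPM, cells with both had 5289 ± 1103 CPM, and cells with Hml alone had 1900 ± 576 CPM (SD, n = 5). Each of the 5 libraries showed this order. CecA2 followed it with 3123 ± 724 CPM in Tep4+ Hml- cells, 1888 ± 353 CPM in Tep4+ Hml+ cells and 447 ± 150 CPM in Tep4- Hml+ cells. CecB did not, as its mean was highest in Tep4+ Hml+ cells (636 ± 176 CPM). It stood at 543 ± 207 CPM in Tep4+ Hml- cells and at 354 ± 128 CPM in Tep4- Hml+ cells. Median depth differed between these classes, at 4844 ± 1350.2, 7482 ± 1846 and 3632 ± 523 UMIs in the same order. In cells thinned to 2000 UMIs the log2 ratio of Tep4+ Hml- over Tep4- Hml+ cells at 96 h was 1.66 ± 0.07, against 1.89 ± 0.32 without thinning (SD, n = 5). Status was called anew on the thinned counts.

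Without thinning, at 72 h Tep4+ Hml- cells had 3719 ± 2395 CPM, Tep4+ Hml+ cells 3928 ± 2531 CPM (SD, n = 5 each) and Tep4- Hml+ cells 1724 ± 1236 CPM (SD, n = 4 libraries with enough cells, of which library 3 had 1 cecropin UMI in 10 cells). At 120 h the double-positive cells were highest, with 2734 ± 716 CPM, against 1978 ± 1003 CPM in Tep4+ Hml- and 1122 ± 437 CPM in Tep4- Hml+ cells (SD, n = 4). In cells thinned to 2000 UMIs, with status called anew, this lead of the double-positive cells was not seen. At 120 h the thinned levels were 2935 ± 943 CPM in Tep4+ Hml-, 2827 ± 480 CPM in Tep4+ Hml+ and 1366 ± 272 CPM in Tep4- Hml+ cells (SD, n = 4). At 72 h the thinned levels were 4406 ± 2687, 3609 ± 2277 and 1728 ± 1342 CPM in the same order (SD, n = 5). Without thinning, Tep4+ Hml- cells ranged over 1174 to 3437 CPM at 120 h, against 4430 to 8404 CPM at 96 h, without overlap, as was also so after thinning (2084 to 4205 CPM and 5297 to 9002 CPM). The range of Tep4- Hml+ cells was 838 to 1774 CPM at 120 h and 1110 to 2399 CPM at 96 h, and these overlapped. Hsp genes summed to 3572 to 20036 CPM in 120 h libraries 1 to 3 and to 1524 CPM in library 4, which had the highest Tep4+ Hml- level, 3437 CPM. Their part in the result was not tested.

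In infested lymph glands all 3 classes spread widely between libraries. Tep4+ Hml- cells had 3989.8, 2760.2, 711 and 472 CPM, Tep4+ Hml+ cells 3445, 2636, 562 and 296 CPM, and Tep4- Hml+ cells 2565, 2038, 303 and 102 CPM. The order of the classes was the same in each library as in normal glands of 96 h. Tep4+ Hml- cells of all 4 infested libraries lay below those of all 5 normal libraries (4430 to 8404 CPM), while Tep4- Hml+ cells overlapped (1110 to 2399 CPM in normal glands). The log2 ratio of Tep4+ Hml- over Tep4- Hml+ cells was 1.127 ± 0.793 in infested (SD, n = 4) and 1.89 ± 0.32 in normal glands (SD, n = 5). In the libraries labelled infested circulation at 96 h it was 0.22 ± 0.51, and in infested circulation at 120 h 0.08 ± 0.26 (SD, n = 3 each). After thinning these were 0.09 ± 0.93 at 96 h and 0.84 ± 0.12 at 120 h. With at least 2 UMIs for each status and no thinning the 120 h value was 0.42 ± 0.31. Thinning changed the cells of each class as well as depth, so the value at 120 h depends on the setting. Normal circulation had too few Tep4+ Hml- cells. Its Tep4+ Hml+ cells had 103 ± 108 CPM and its Tep4- Hml+ cells 35.1 ± 43.8 CPM at 96 h (SD, n = 3). The log2 ratio of these classes was 1.86 ± 0.49, but 0.19 ± 1.67 with at least 2 UMIs for each status (SD, n = 3 each). This gap therefore depends on the setting.

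**Figure D4:**
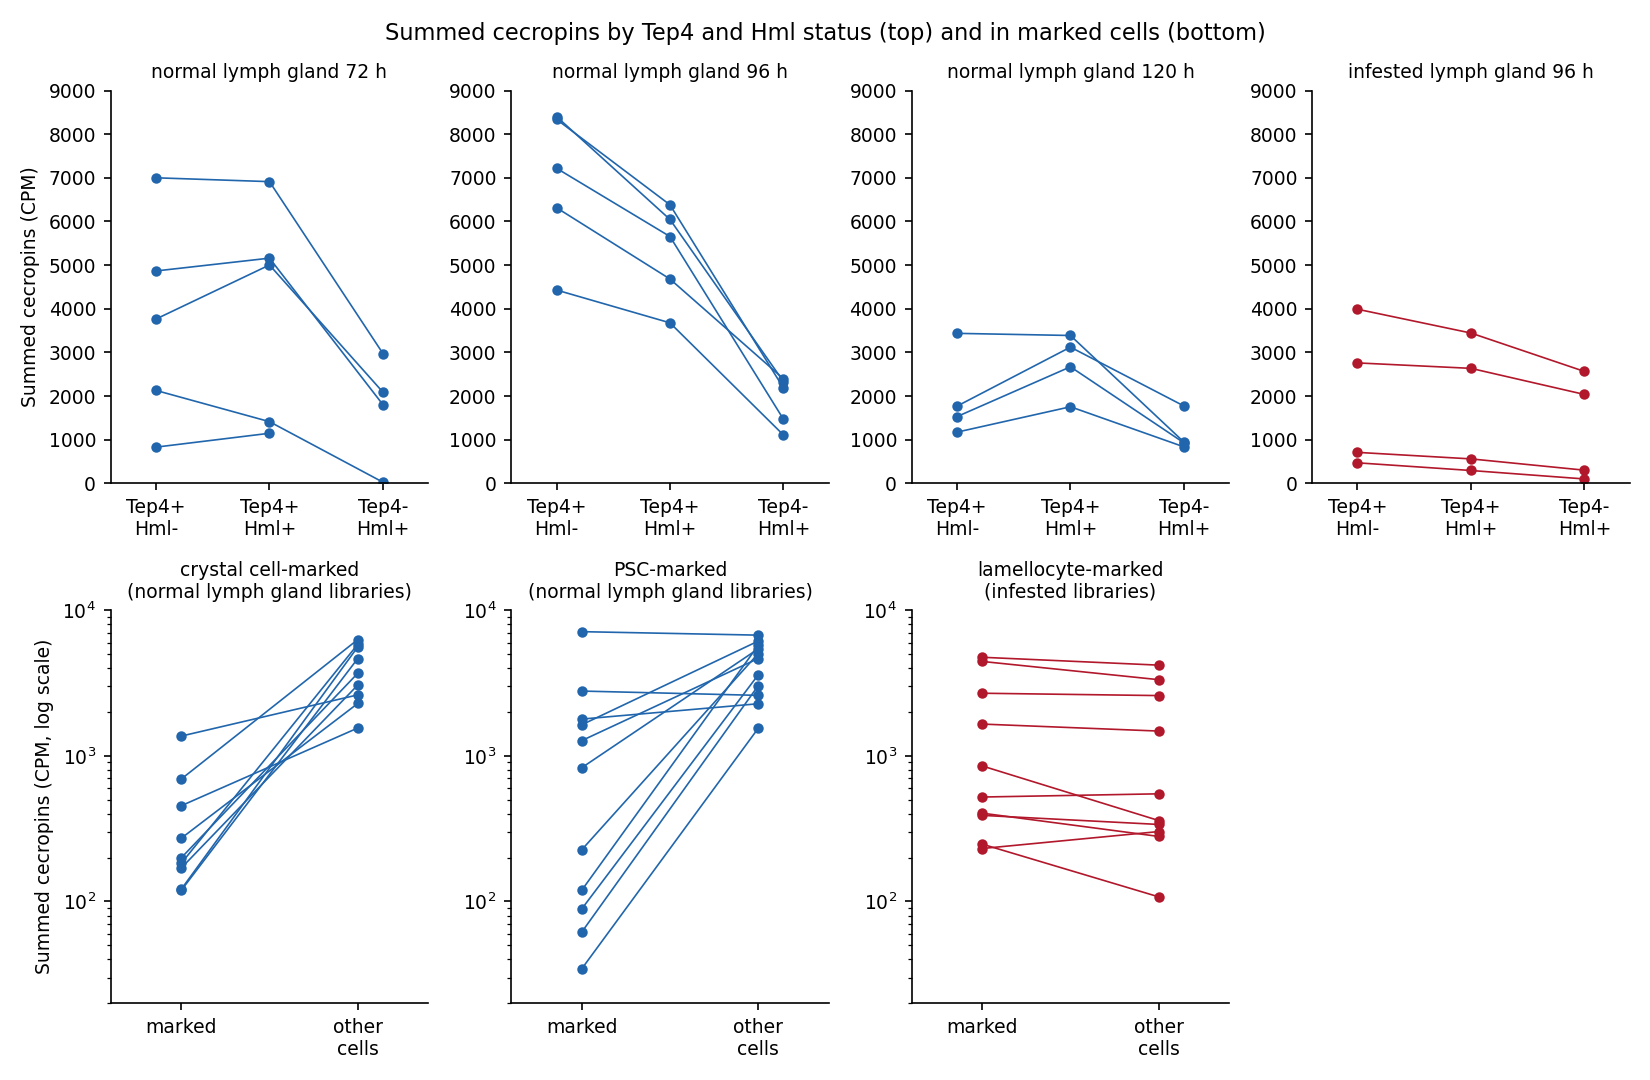
Summed cecropins in CPM within libraries, each line joining the values of 1 library: by Tep4 and Hml status in lymph gland conditions (top, linear axis) and in marked against other cells (bottom, log axis), infested libraries in red and normal ones in blue. In the normal lymph gland at 96 h all 5 lines fall toward Tep4- Hml+ cells, and all 9 crystal cell lines are lower in marked cells.

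Levels in the specialised hemocytes had not been used to choose the genes and were tested within libraries by an exact two-sided sign-flip permutation test, with adjustment over the 3 cell classes. Crystal cells, which store prophenoloxidase for melanization, were marked by at least 10 UMIs of PPO1 plus PPO2. In the 9 normal lymph gland libraries with enough of them (339 cells), cecropins averaged 397 ± 409 CPM in marked and 3954 ± 1708 CPM in other cells (SD). They were lower in marked cells in 9 of 9 libraries, with a mean log2 ratio of -3.66 ± 1.57 (SD, n = 9; exact permutation p = 0.00391, the smallest possible; adjusted p = 0.00586). Median depth was similar, at 7842 UMIs in marked and 7192.5 UMIs in other cells. Among other cells of the same Tep4 and Hml status the ratio was -3.16 ± 1.47 (SD), again below 0 in 9 of 9 libraries.

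Cells of the posterior signaling center (PSC), the niche of the lymph gland, were marked by Antp and kn. In 11 normal lymph gland libraries (189 cells), cecropins averaged 1451 ± 2089 CPM in marked and 4255 ± 1732 CPM in other cells (SD). The mean log2 ratio was -2.87 ± 2.22 (SD, n = 11; exact permutation p = 0.00391; adjusted p = 0.00586), and it was below 0 in 9 libraries. The 2 exceptions were 72 h library 1, with 7127 CPM in marked and 6746 CPM in other cells, and 120 h library 1, with 2786 CPM in marked and 2602 CPM in other cells. In thinned cells, with marked cells called anew, both were below 0 as well. There 72 h library 1 had 2 cecropin UMIs in 10 marked cells. In 120 h library 1, marked cells had 674 CPM and other cells 2499 CPM. With the marker threshold raised to 4 UMIs, 8 of 8 libraries were below 0 (120 cells), with 368 ± 573 CPM in marked and 3796 ± 1744 CPM in other cells and a mean log2 ratio of -4.36 ± 1.83 (SD, n = 8; exact permutation p = 0.00781, the smallest possible). Without 72 h library 1 marked cells averaged 884 ± 954 CPM at the first threshold, with a mean log2 ratio of -3.17. Marked cells were shallower, with a median of 4097 against 7529 UMIs, and after thinning only 5 libraries had enough cells, with 292 ± 335 CPM in marked and 3139 CPM in other cells and a mean log2 ratio of -3.88 (exact permutation p = 0.0625, the smallest possible).

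Lamellocytes, the flat cells that encapsulate wasp eggs, were marked by atilla, PPO3 and ItgalphaPS4 in the infested libraries (10 libraries, 6823 cells). Cecropins were higher in marked cells in 8 of 10 libraries, but the mean log2 ratio of 0.35 ± 0.52 did not pass the test (SD, n = 10; permutation p = 0.0547; adjusted p = 0.0547). In thinned cells it was 0.45 (permutation p = 0.0332), and without infested lymph gland library 3 or 4 it was 0.40 or 0.44 with a p under the threshold, so this call depends on the setting. Among other cells of the same Tep4 and Hml status it was 0.19 ± 0.47, above 0 in 7 of 10 libraries (SD; permutation p = 0.246). Marked cells were deeper, with a median of 7720.5 against 4317.5 UMIs in other cells. By group, the mean log2 ratio was 0.005 ± 0.329 in infested lymph glands (SD, n = 4). It was 0.53 ± 0.62 in the libraries labelled infested circulation at 96 h and 0.64 ± 0.51 in infested circulation at 120 h (SD, n = 3 each). A difference between these groups was not tested. The 3 infested circulation libraries of 120 h, in which atilla reached 4842 to 6434 CPM, had 232 to 382 CPM of cecropins as a whole.

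Other antimicrobial peptides and the Imd pathway were tested in edgeR over all genes of each comparison, with Benjamini-Hochberg adjusted p-values (false discovery rate, FDR, under 0.05). Between 72 and 96 h in the normal lymph gland, 6 of the 8 other peptides tested were higher at 96 h and none was lower, against 19.8% of all genes called in either direction, 9.86% higher and 9.95% lower. Drs, the antifungal drosomycin, averaged 390.0 ± 124 CPM at 96 h and 23.1 ± 24.9 CPM at 72 h, a log2 fold change of 3.83 ± 0.63 (SE; edgeR adjusted p = 0.00062). AttA and AttB, attacins active on Gram-negative bacteria, had 215 ± 40.6 and 355 ± 79.8 CPM at 96 h, against 45.2 ± 40.8 and 58.3 ± 60.7 CPM at 72 h (log2 fold changes 2.06 ± 0.40 and 2.42 ± 0.51, SE). AttD, DptB (diptericin B) and Mtk (metchnikowin) rose by log2 fold changes of 2.72, 4.44 and 2.92. Their levels were low, with means of 4.99, 0.20 and 1.10 CPM at 72 h and 43.5, 8.47 and 13.6 CPM at 96 h. The size of these folds is therefore imprecise. Dro, the proline-rich peptide drosocin, did not pass the test (714 ± 243 CPM at 96 h and 234 ± 246 CPM at 72 h; edgeR adjusted p = 0.13).

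From 96 to 120 h most other peptides stood higher and 3 of the 4 cecropins lower. Of 8 other peptides tested, 6 were higher at 120 h and none lower, where 42.4% of all genes were called in either direction, 21.5% higher and 20.8% lower. Drs averaged 1526 ± 386 CPM at 120 h and 390.0 ± 124 CPM at 96 h (log2 fold change 2.11 ± 0.59, SE; edgeR adjusted p = 0.0093). AttD averaged 329 ± 177 CPM at 120 h and 43.5 ± 18.3 CPM at 96 h (3.01 ± 0.48; edgeR adjusted p = 0.00014), and AttA 494 ± 44.4 CPM at 120 h and 215 ± 40.6 CPM at 96 h (1.33 ± 0.40; edgeR adjusted p = 0.015). DptB and Mtk, at 23.5 and 30.1 CPM at 120 h, were also higher. In 1 fit of all 30 libraries 3 of these passed, AttA lost its call there (edgeR adjusted p = 0.12), and Mtk lost it there, in DESeq2 and without normal lymph gland 120 h library 3. Dro, at 931 ± 186 CPM, and AttB, at 698 ± 57.7 CPM, did not pass. In the same libraries CecA1, CecA2 and CecC were lower at 120 h without overlap, where 22.5% of all genes were lower without overlap, and their means were 417, 769 and 722 CPM at 120 h, against 1022, 1853 and 1605 CPM at 96 h. The comparisons of 72, 96 and 120 h share the 96 h libraries.

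Infested lymph glands had lower levels of other peptides as well as of cecropins. Of 7 tested, 5 were lower and none higher, where 17.6% of all genes were called in either direction, 7.96% higher and 9.66% lower. Dro averaged 158 ± 84.9 CPM in infested and 714 ± 243 CPM in normal glands (log2 fold change -2.35 ± 0.39, SE; edgeR adjusted p = 0.0024). Drs averaged 29.2 ± 30.7 CPM in infested and 390.0 ± 124 CPM in normal glands (-3.88 ± 0.74; edgeR adjusted p = 0.0056). AttA stood at 32.6 ± 32.0 CPM in infested and 215 ± 40.6 CPM in normal glands, and AttB at 61.3 ± 57.0 CPM in infested and 355 ± 79.8 CPM in normal glands, with log2 fold changes of -2.87 and -2.70. DptB (-2.67; edgeR adjusted p = 0.039) lost its call without each of 7 of the libraries in turn and in DESeq2, and AttD and Mtk did not pass. Over the list the median log2 fold change was -2.67, against 0.01 for all genes. Crystal cell markers summed to 9.4 to 81.2 CPM in infested and 946 to 2059 CPM in normal glands of 96 h, and lamellocyte markers to 269 to 619 CPM in infested and 1.5 to 54.7 CPM in normal glands. Their part in the result was not tested.

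**Figure D5:**
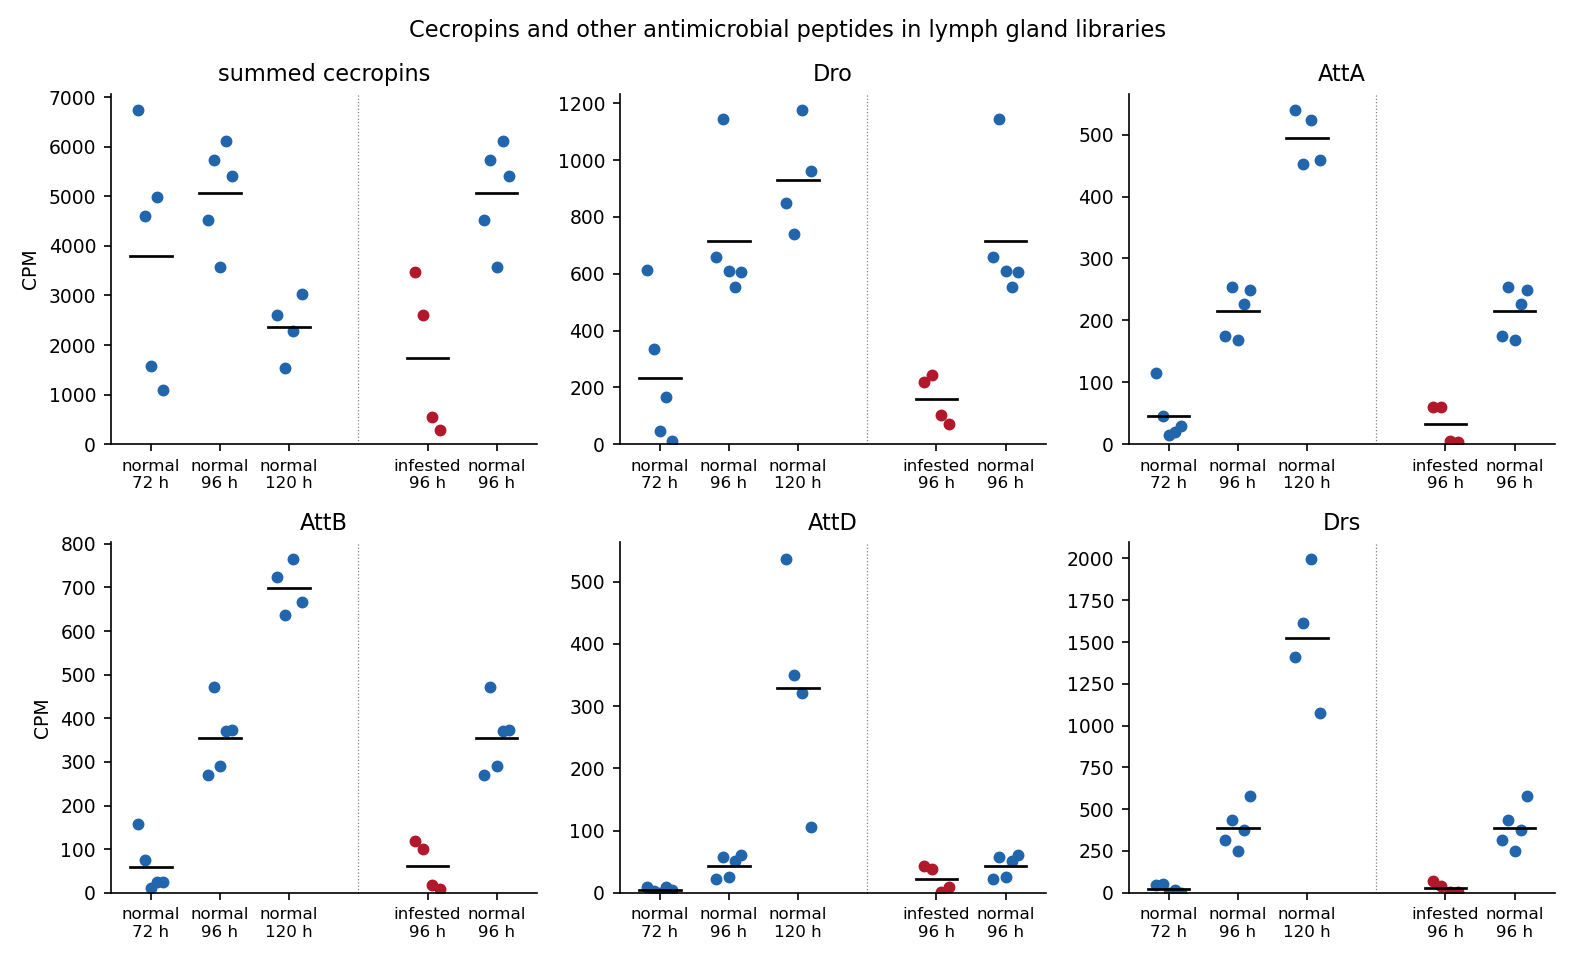
CPM per lymph gland library of the summed cecropins and of 5 other antimicrobial peptides, by age in normal larvae (left of the dotted line) and in infested against normal larvae of 96 h (right), infested libraries in red and normal ones in blue, with a black line at the group mean. Drs averages 1526 CPM at 120 h and 390.0 CPM at 96 h, whereas the summed cecropins average 2359 CPM at 120 h and 5074 CPM at 96 h.

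In normal circulation 5 of the 9 other peptides tested were lower than in the lymph gland at 96 h (AttA, AttB, DptB, Dro and Drs) and none was higher, where 49.6% of all genes were called, 26.9% higher and 22.8% lower. Dro averaged 21.99 ± 27.9 CPM in circulation and 714 ± 243 CPM in the lymph gland (log2 fold change -5.38 ± 0.74, SE; edgeR adjusted p = 5.3e-05). Mtk, with 25.3 ± 4.84 CPM in circulation and 13.6 ± 5.26 CPM in the lymph gland, was 1 of the 4 that did not pass. The others were AttD and, named after their values were seen, AttC and Drsl2. At 120 h 6 of 9 were lower and 1, Drsl2 (a drosomycin-like gene at 2.94 CPM in circulation), was higher, with 51.9% of all genes called, 28% higher and 23.9% lower. AttA averaged 2.85 ± 2.63 CPM in circulation and 494 ± 44.4 CPM in the lymph gland (log2 fold change -8.01 ± 0.87, SE; edgeR adjusted p = 1e-05).

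In the libraries labelled infested circulation at 96 h, 1 of the 7 other peptides tested was higher than in normal circulation and none lower, where 35.9% of all genes were called in either direction, 18.5% higher and 17.4% lower. This was Dro, with 213 ± 101.3 CPM in infested and 21.99 ± 27.9 CPM in normal circulation (log2 fold change 3.48 ± 0.88, SE; edgeR adjusted p = 0.011). Without the pair of normal libraries that share barcodes 4 passed, without normal library 3 alone 3 passed, and without infested library 3 the count was 2. The median log2 fold change of the 7 was 1.82, against 0.02 for all genes. At 120 h none of 7 passed in edgeR, none had an unadjusted p under 0.05 and DESeq2 called 0, while 46.2% of all genes were called, 23.4% higher and 22.8% lower. The median log2 fold change was 0.30, against -0.01 for all genes. AttA stood at 3.03 ± 0.91 CPM in infested and 2.85 ± 2.63 CPM in normal circulation (log2 fold change 0.30 ± 1.25, SE), and Drs at 81.2 ± 23.2 CPM in infested and 76.4 ± 72.5 CPM in normal circulation (0.24 ± 0.99, SE). At this age the cecropins had 231.9 to 382 CPM in infested and 1.67 to 74.0 CPM in normal circulation, and a difference between them and the other peptides was not tested.

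Of the 23 Imd pathway genes, PGRP-LB, the amidase among the genes most like the cecropins over the libraries, averaged 206 ± 56.8 CPM at 96 h and 89.7 ± 31.2 CPM at 72 h in the normal lymph gland (log2 fold change 1.07 ± 0.24, SE; edgeR adjusted p = 0.0057). It averaged 69.6 ± 34.5 CPM in infested and 206 ± 56.8 CPM in normal glands of 96 h (-1.73 ± 0.34; edgeR adjusted p = 0.0063), and 12.1 ± 3.43 CPM in normal circulation at 96 h (-4.47 ± 0.33 against the lymph gland; edgeR adjusted p = 2.7e-07). In the libraries labelled infested circulation at 96 h it stood at 71.1 ± 11.8 CPM (2.78 ± 0.27 over normal circulation; edgeR adjusted p = 0.00011). At 120 h it had 16.7 ± 0.46 CPM in infested and 8.03 ± 2.86 CPM in normal circulation (1.22 ± 0.26; edgeR adjusted p = 0.0033). Between 120 h (161 ± 24.8 CPM) and 96 h in the lymph gland it did not pass the test (log2 fold change -0.23 ± 0.25, SE). The cecropins were not tested between these ages.

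Rel, which encodes Relish, averaged 1049.6 ± 158 CPM at 120 h and 776 ± 99.9 CPM at 96 h in the normal lymph gland and rose (log2 fold change 0.57 ± 0.17, SE; edgeR adjusted p = 0.014), whereas CecA1, CecA2 and CecC stood lower. This call was lost without normal lymph gland 120 h library 3 and in 1 fit of all 30 libraries (edgeR adjusted p = 0.055 and 0.14). PGRP-LA, a regulator of the pathway, rose at both steps by a log2 fold change of 1.14, to 27.3 ± 4.44 CPM at 120 h. In all, 4 of 22 tested were higher and 0 lower at 96 h than at 72 h, where 9.86% of all genes were higher and 9.95% lower. At 120 h 6 were higher and 1 lower than at 96 h, where 21.5% of all genes were higher and 20.8% lower. Without normal lymph gland 96 h library 4 the count between 72 and 96 h was 2. The lower one was PGRP-LF, with 152 ± 15.6 CPM at 120 h and 219.9 ± 21.1 CPM at 96 h (-0.41 ± 0.16; edgeR adjusted p = 0.049), and this call was lost under 11 of 17 settings, among them 8 of the 9 in which 1 library was left out.

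In infested lymph glands 5 of 21 pathway genes were lower and 2 higher, where 9.66% of all genes were lower and 7.96% higher, and without infested library 3 the count in either direction was 4. Rel averaged 490.4 ± 170 CPM in infested and 776 ± 99.9 CPM in normal glands (log2 fold change -0.83 ± 0.21, SE; edgeR adjusted p = 0.024), which did not pass without normal library 4, without infested library 3 or in 1 fit of all 30 libraries. Diap2, the ubiquitin ligase that acts on Imd, averaged 15.6 ± 5.46 CPM in infested and 26.7 ± 3.25 CPM in normal glands (-0.93; edgeR adjusted p = 0.011), and PGRP-LB, PGRP-LA and ben were the other lower genes. PGRP-LA lost its call under 12 of 17 settings and ben under 8. Tak1, the kinase below Imd (26.2 ± 1.59 CPM in infested and 17.2 ± 2.14 CPM in normal glands; edgeR adjusted p = 0.016), and ird5, the fly IKK kinase, were the higher ones.

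Normal circulation had 8 of 22 pathway genes lower and 2 higher than the lymph gland at 96 h, where 22.8% of all genes were lower and 26.9% higher. At 120 h 13 were lower and 3 higher, where 23.9% of all genes were lower and 28% higher. Without normal circulation 96 h library 1, 5 passed at 96 h. PGRP-LF averaged 82.6 ± 14.5 CPM in circulation and 219.9 ± 21.1 CPM in the lymph gland at 96 h (log2 fold change -1.77 ± 0.33, SE; edgeR adjusted p = 0.00061). Tab2, the partner of Tak1, was higher in circulation, with 36.1 ± 7.84 CPM against 10.3 ± 1.29 CPM in the lymph gland (1.41 ± 0.15; edgeR adjusted p = 6.2e-06). Rel was called lower at 120 h only, with 351 ± 165 CPM in circulation and 1049.6 ± 158 CPM in the lymph gland (-2.09 ± 0.36; edgeR adjusted p = 0.00033), and a difference between the ages was not tested. In CPM without scaling factors the counts turned to 2 lower and 5 higher at 96 h and to 8 lower and 6 higher at 120 h, where the median of all genes moved by 0.46 and 0.57 (log2), so directions of small changes in circulation depend on the scaling.

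Infested circulation had 4 of 22 pathway genes higher and 2 lower than normal circulation at 96 h, where 18.5% of all genes were higher and 17.4% lower. At 120 h 12 were higher and 1 lower, where 23.4% of all genes were higher and 22.8% lower. At 120 h key, the fly IKK regulatory subunit, averaged 78.4 ± 3.92 CPM in infested and 30.8 ± 2.86 CPM in normal circulation (log2 fold change 1.49 ± 0.27, SE; edgeR adjusted p = 0.001). Tak1 averaged 44.6 ± 8.10 CPM in infested and 24.7 ± 3.28 CPM in normal circulation (1.00 ± 0.19; edgeR adjusted p = 0.0016). Rel did not pass at either age in these fits, with 144 ± 17.5 CPM in infested and 351 ± 165 CPM in normal circulation at 120 h (-1.13 ± 0.52; edgeR adjusted p = 0.097; it passed under 4 of 15 settings, among them without normal circulation 120 h library 1). Lamellocyte markers summed to 6289 to 8262 CPM in infested and 17.7 to 219 CPM in normal circulation of that age, and their part in the result was not tested.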

How the data were processed

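The authors aligned Drop-seq reads to the BDGP6 genome with STAR 2.5.3a in the Drop-seq tools pipeline, which uses Picard, and deposited UMI counts per gene and cell, unnormalized, 1 table per library. The least number of reads that a barcode needed was set by the authors per library. The 4 cecropins and the gene lists were chosen with earlier results of these data known.

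Outside the infested lymph gland libraries, kept cells had 400 to 5000 genes and UMIs at most 2 SD above the library mean. Their mitochondrial share was up to 10% in normal lymph gland and 20% in circulation libraries. In the infested lymph gland libraries these limits were not applied, and all deposited barcodes went on to the doublet step. For infested lymph gland libraries 3 and 4 the paper reports a lower floor of genes per cell than for libraries 1 and 2. Scrublet, run in scanpy 1.11.5, marked 0 to 11.0% of cells per library as doublets, which were removed. It marked under 0.5% in 19 libraries, among them the largest, so doublets must be assumed to remain there. The infested lymph gland tables do not list 541 genes of the normal ones, which hold 2.10 to 2.29% of the UMIs of normal lymph glands of 96 h.

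CPM is relative to all UMIs of the kept cells of a library. Sums per library were tested in edgeR 4.0.16 (R 4.3.3; TMM factors, filterByExpr, quasi-likelihood test), with Benjamini-Hochberg adjustment over all genes and an FDR under 0.05, and DESeq2 1.42.0 was an alternative. Samples were grouped by their titles. Library numbers were not used to pair the samples in the main fits. Lymph gland times were fitted together (14 libraries), as were the normal tissues of 96 and 120 h and the 12 circulation libraries. Tested on simulated data, edgeR recovered 70% of 2-fold and 95% of 4-fold changes between 96 and 72 h lymph glands (7780 genes). Recovery was 85% and 99% between infested and normal lymph glands (7309 genes). It was 58% and 80% between normal circulation and lymph gland at 96 h (8449 genes). Between infested and normal circulation at 96 h it was 31% and 93% (7637 genes). The simulation changed 100 genes per fold and gave each gene the spread usual for its level. These shares therefore do not apply to genes that vary more between libraries.

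Cells were marked by at least 10 UMIs of PPO1 plus PPO2 (crystal cell), at least 2 of Antp plus kn with Antp present (PSC), or at least 2 of atilla, PPO3 and ItgalphaPS4 with atilla present (lamellocyte). A class needed 10 cells in a library, and 1 count was added to each cecropin sum before log2 ratios. Thinning drew 2000 UMIs per cell with a fixed seed. Tep4 and Hml status and marked classes were called anew on the thinned counts, so thinning changed the cells of a class as well as depth.

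Named genes were the members, the list genes past the FDR in at least 1 of 7 comparisons whose larger group mean reached 20 CPM, the 5 genes most like the summed cecropins, the genes used to mark cells, and those of the locus. Of the 16 other antimicrobial peptides and 23 Imd pathway genes found, those that passed the filter were tested. Alternatives were another tool, RLE size factors, no filter, all barcodes, mitochondrial and ribosomal RNA genes left out, 1 fit of all libraries, a replicate block, each library left out, other depths and thresholds and, added after the data were seen, CPM without scaling factors and leaving out the pair of libraries with shared barcodes. Intervals and limits of 0 counts (3 UMIs) cover counting error only. Promoter sequences were not analysed here.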

Additional observations from a re-analysis of the deposited data

Results flagged for a closer look

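The summed cecropins had opposite differences with infestation in the 2 tissues at 96 h. The log2 ratio of the infested over the normal mean was -1.55 in the lymph gland, where all 4 infested libraries were below all 5 normal ones, and 4.77 in circulation, where all 3 infested libraries were above all 3 normal ones. The difference between the tissues was not tested, since these levels were used to choose the genes. The 3 libraries labelled infested circulation at 96 h had Tep4 levels that overlapped with those of infested lymph glands, as given above, Hml at 547 to 1183 CPM, against 1049 to 2029 CPM in infested lymph glands, and their summed cecropins (424 to 4244 CPM) overlapped with those of infested lymph glands (295 to 3483 CPM). Among 49 sets of values looked at for a single library far from the rest, 0 had one. The sets came from lymph gland groups of 4 or 5 libraries, the crystal cell ratios of 9 libraries and the lamellocyte ratios of 10. Circulation groups of 3 libraries were too small for this look, which can also miss 2 outlying libraries that lie together.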

How the results depend on the processing

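The levels of the summed cecropins moved by less than 1 SD under all settings run. Leaving out a single library cannot move the mean of its group by 1 SD, so those settings could not show a move. Over all 86 calls of a named gene in a comparison, 1270 of 1410 settings kept direction and call, and 54 calls held under every setting. The calls of 6 were lost under most of their settings: PGRP-LF between 120 and 96 h, PGRP-LA in infested lymph glands, eff at 96 h and Dredd at 120 h between circulation and lymph gland, and key at 96 h and akirin at 120 h in infested circulation. The direction turned in CPM without scaling factors for Dredd (0.034) and casp (0.042) between circulation and lymph gland at 120 h. Of 12 pairs given as not passing, 8 never passed, and the log2 fold change changed sign for Rel in infested circulation at 96 h (0.016 with no filter, 0.35 without both libraries that share barcodes, -0.77 to 0.28 with each library left out, above 0 without normal library 3 or infested library 1). At 120 h it did so for AttA (-0.18 without that pair, -0.28 to 1.16 with each library left out, below 0 without normal library 1) and Drs (-0.11 to 1.38, below 0 without normal library 1 or 3). In 1 fit of all 30 libraries 3 other peptides passed between 120 and 96 h in the lymph gland, and 673 genes and 4 Imd genes between infested and normal lymph glands. Without a filter on low counts 2 other peptides passed in infested circulation at 96 h and 1 at 120 h, which was also the count at 120 h in 1 fit of all libraries. Leaving out both libraries that share barcodes gave 4 other peptides in infested circulation at 96 h. With each library left out in turn, the calls ranged over 680 to 1498 genes (680 without infested library 3, 800 without normal library 4) and 4 to 10 Imd genes for infested lymph glands, 2 to 4 Imd genes between 96 and 72 h, 5 to 10 Imd genes between circulation and lymph gland at 96 h, and 1558 to 3149 genes (1558 without infested library 3) and 1 to 3 other peptides for infested circulation at 96 h. The mean log2 ratio of lamellocyte-marked cells ranged over 0.25 to 0.44 with each library left out and was 0.19 among cells of the same Tep4 and Hml status, and it passed its threshold without infested lymph gland library 3 or 4 and when thinned (0.45). That of PSC-marked cells was -3.88 when thinned, where 5 libraries could not reach the threshold.

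Libraries with the same number did not vary together throughout (correlations from -0.40 to 0.41). For infested over normal lymph glands, 2 of 4 pairs had a correlation over 0.1 and 2 were closest to their own number. A replicate block gave 805 genes and 2 Imd genes for infested over normal lymph glands and changed no other count by over 1.5 times; in no comparison was every library closest to its own number.

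CPM without scaling factors moved the median of all genes by over 0.1 (log2) in each comparison. The higher and lower calls were then 1183 and 524 between 96 and 72 h (767 and 774 with TMM), 1271 and 1918 between 120 and 96 h (1675 and 1622), and 1299 and 480 for infested lymph glands (582 and 706). They were 3470 and 817 for circulation over lymph gland at 96 h (2270 and 1924), 4313 and 849 at 120 h (2368 and 2016), 713 and 1581 for infested circulation at 96 h (1415 and 1328), and 1279 and 1940 at 120 h (1784 and 1743). Without a filter they were 2055 and 1005 between 120 and 96 h and 2024 and 1210 for infested circulation at 120 h.

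The share of cells with all 4 cecropins follows depth. Without thinning it averaged 17.1% at 72 h, 33.4% at 96 h and 17.7% at 120 h in the lymph gland, 15.7% in infested lymph glands, 22.3% and 4.20% in infested circulation at 96 and 120 h, and 0.274% in normal circulation at 120 h. At 1000 UMIs it was 13.4% at 96 h and 7.04% at 120 h in the lymph gland and 0.235% in infested circulation at 120 h. The log2 ratio of Tep4+ Hml- over Tep4- Hml+ cells was 1.57 at 72 h when thinned, and in infested circulation at 120 h 0.84 when thinned and 0.42 with at least 2 UMIs for each status. Status was called anew after thinning, so the moved ratios do not separate depth from the cells in a class. The cause of these moves was not tested beyond the depth set and the status threshold. With 7 to 364 cecropin UMIs per normal circulation library, the make-up of the family there is imprecise.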

Other observations

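In cells of the normal lymph gland, the genes whose thinned counts went most closely with the summed cecropins were chosen after their values were seen. Over 14 libraries and 1560 genes, CR43855, a long non-coding RNA, came first with a mean Spearman rho of 0.49 (0.35 to 0.56 between libraries), followed by Ance at 0.35, Dro at 0.31 and Tep4 at 0.31. CR43855 averaged 6951 ± 1127 CPM at 72 h, 3304 ± 365 CPM at 96 h (SD, n = 5 each) and 1437 ± 662 CPM at 120 h (SD, n = 4), and 141 ± 108 CPM in normal circulation at 96 h (SD, n = 3). Unlike CR43855, the summed cecropins did not have their highest mean at 72 h. At the other end stood Glt at -0.35 and BM-40-SPARC at -0.34, which both encode basement membrane proteins.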
